A study of Canis lupus familiaris with 6 samples.

Results

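Vascular endothelial growth factors and their receptors were examined in canine mammary tumor cells grown alone or with myeloid-derived suppressor cells (MDSCs). The 10 genes listed were the ligands VEGFA, VEGFB, VEGFC, FIGF (VEGF-D) and PGF, the receptor tyrosine kinases FLT1, KDR and FLT4, and the co-receptors NRP1 and NRP2. Every probe carrying one of these symbols in the scanner output was taken, apart from controls. This gave 12 probes of 8 genes, out of 43603 probes. VEGFA, VEGFC, PGF and FLT1 had 2 probes each, the other 4 genes had 1, and no probe was found under the symbols FIGF and FLT4, so these 2 genes were not analysed here by symbol.

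CMT-U27 is a line from a simple carcinoma, CMT-U309 from a spindle cell tumor and P114 from an anaplastic cancer, so each tumor type is represented by 1 established line. In co-culture the tumor cells shared serum-containing RPMI medium, across a transwell membrane, with MDSCs that had been isolated from healthy dogs' blood, and in monoculture they were kept without MDSCs. Co-culture lasted 48 h according to the methods and at least 72 h according to the sample descriptions. RNA of both cultures of a line was hybridized to 2 Agilent 2-colour arrays, with co-culture RNA in Cy5 on replicate 1 and in Cy3 on replicate 2, which makes 6 arrays and 12 channels. Nothing in the labels names separate cultures, both arrays of a line were hybridized with the same RNA of each culture, and n is therefore 3 lines for co-culture against monoculture and 2 RNA samples a line for levels. As far as the scan names show, each line lay on a slide of its own, so slide and line cannot be told apart.

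VEGFA is the main growth factor of blood vessels and acts mostly through KDR, while FLT1 binds VEGFA, VEGFB and PGF and has weaker kinase activity. VEGFC and VEGF-D act on lymphatic vessels through FLT4. The neuropilins bind both VEGF ligands and class 3 semaphorins. Tumor cells are a common source of VEGFA in mammary tumors, whereas KDR and FLT1 are best known from endothelium.

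The probes are 60-base oligonucleotides, and the coordinates below are those of the scanner output on canFam2. The sequences show which short stretch of a transcript a probe reads: the only probe of KDR, NRP1 and NRP2, the brighter one of FLT1 and the dimmer ones of VEGFA and VEGFC. For VEGFA and KDR the stretch printed lies on a genomic interval far longer than 60 bases, so it crosses at least 1 splice junction. The FLT1 stretch lies on 111 bases, and whether an intron accounts for the extra length was not assessed. The sequences are given 5′ to 3′ with no part marked.
VEGFA, dimmer probe, chr12:15224402-15226702, plus strand: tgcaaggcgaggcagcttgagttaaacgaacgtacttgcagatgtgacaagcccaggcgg
VEGFC, dimmer probe, chr16:55953281-55953340, plus strand: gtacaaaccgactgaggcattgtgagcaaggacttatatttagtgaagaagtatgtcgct
FLT1, brighter probe, chr25:14273491-14273601, plus strand: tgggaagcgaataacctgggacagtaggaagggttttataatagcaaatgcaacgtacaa
KDR, chr13:50375162-50376987, minus strand: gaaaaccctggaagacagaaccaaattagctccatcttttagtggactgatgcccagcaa
NRP1, chr2:6549424-6549483, plus strand: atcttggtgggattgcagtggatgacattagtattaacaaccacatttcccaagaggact
NRP2, chr37:17377157-17377216, plus strand: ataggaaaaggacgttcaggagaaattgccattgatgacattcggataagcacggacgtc
The other probe of VEGFA is at chr12:15228074-15228133 and that of VEGFC at chr16:55953563-55953622, the latter downstream of the VEGFC stretch above. The other probe of FLT1 is at chr25:14395128-14395187. The VEGFB probe is on chr18:55848507-55849081, and those of PGF are on chr8:51101267-51103544 and chr8:51103551-51104360, all 3 on the minus strand. No annotation of canFam2 was used here, so exons and untranslated regions were not assigned. Where a gene had 2 probes they are called brighter and dimmer by their mean signal, and the brighter one stood for the gene.

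The arrays differed in how well they repeated each other. Over 40880 probes tested, the log2 ratios of the dye-swapped arrays correlated at 0.26 for CMT-U27, -0.09 for CMT-U309 and -0.39 for P114. Between 53.0% and 81.0% of the probes were well above background in a channel, as flagged by the scanner software. In CMT-U27 and CMT-U309 the co-culture channel had the lower share on both arrays. The main results are therefore also given without P114.

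Analysis of co-culture against monoculture showed that none of the 12 probes passed the thresholds of the methods, a fold change above 2 with an unadjusted p under 0.05. Of all probes tested, 1.03% passed them as higher in co-culture and 0.191% as lower. No probe of any gene reached an adjusted p of 0.05 in limma with Benjamini-Hochberg adjustment, the smallest being 0.229, and 4062 probes (9.94%) had an unadjusted p under 0.05. Both VEGFA probes and the KDR probe were among the latter (3 of 12). The brighter VEGFA probe and KDR were higher in co-culture on all 6 arrays (2 of 12), against 2.55% of all probes. None of the 12 was lower on all 6 arrays, against 1.71% of all probes. The mean log2 ratio was above 0 at 6 of the 12 probes, and the median over the 8 genes was 0.02.

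**Figure D1:**
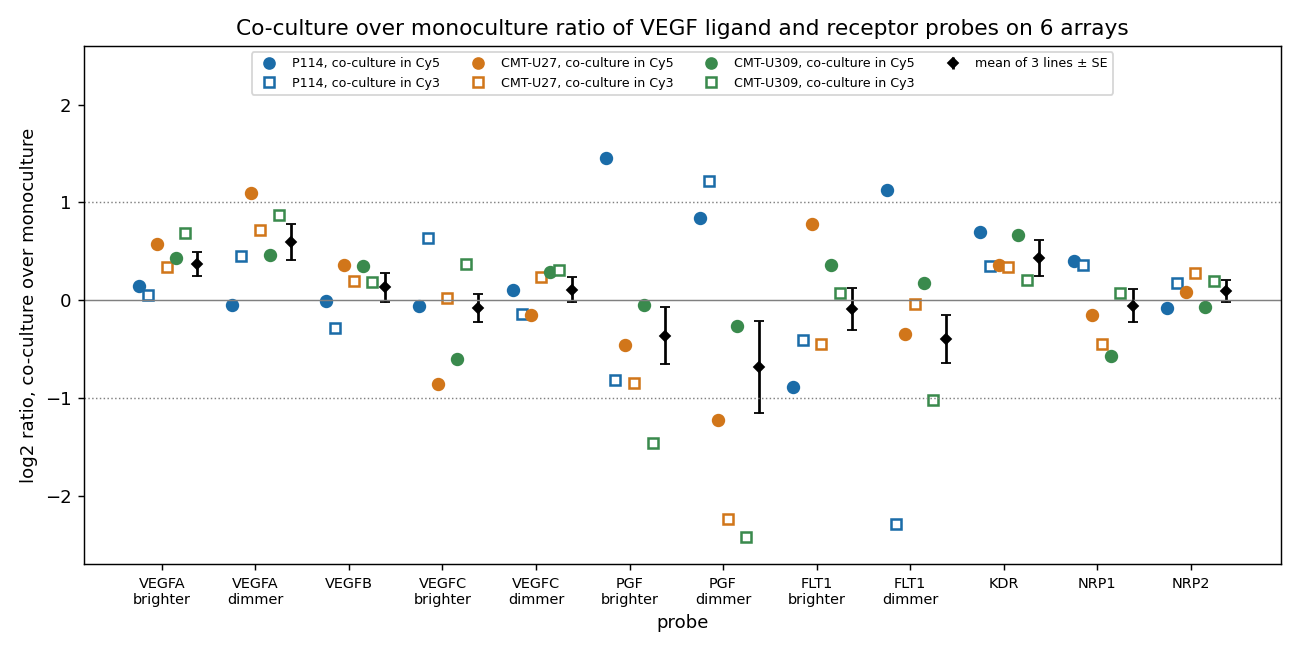
Log2 ratio of co-culture over monoculture (y axis) of the 12 probes (x axis) on each of 6 arrays, coloured by cell line. Filled circles have co-culture RNA in Cy5 and open squares in Cy3, diamonds with bars are the mean of 3 lines ± SE from limma, and dotted lines mark a fold change of 2; both VEGFA probes and KDR lie mostly above 0, and the PGF and FLT1 probes scatter most.

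Among the ligands, VEGFA gave the largest mean ratios. At its brighter probe the log2 ratio was 0.14 and 0.06 on the P114 arrays, 0.57 and 0.34 on the CMT-U27 arrays, and 0.43 and 0.69 on the CMT-U309 arrays. At the dimmer probe it was -0.05 and 0.45 in P114, 1.101 and 0.72 in CMT-U27, and 0.47 and 0.88 in CMT-U309. Only 1 of these 12 values was below 0, and P114 had the lowest mean of the 3 lines at both probes. The mean over lines was 0.37 (SE 0.13, 95% interval 0.09 to 0.65, n = 3 lines) at the brighter probe, a 1.29-fold difference, and 0.59 (SE 0.19, 0.18 to 1.01) at the dimmer one, a 1.51-fold difference. The limma p was 0.0146 and 0.00976, with an adjusted p of 0.498 for each, so neither difference held after adjustment over all probes. Without P114 the means were 0.51 and 0.79 with limma adjusted p of 0.00462 and 0.0118, in a fit in which 6368 probes passed an adjusted p of 0.05. That fit held CMT-U27 and CMT-U309 alone, and its p-values rest on variances that eBayes shares across probes. Without CMT-U27 they were 0.33 and 0.44 and without CMT-U309 0.28 and 0.55, each with a limma adjusted p of 1.00. The unadjusted p was no longer under 0.05 in 4 of 20 alternatives at the brighter probe and 4 of 19 at the dimmer one, among them the fit without CMT-U27 and the methods' t-test for both probes. Both probes were well above background in all 12 channels. As the RNA came from whole cultures, a change in the number of cells of a kind and a change in RNA per cell cannot be told apart.

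VEGFB, a ligand of FLT1, had log2 ratios of 0.00 and -0.28 in P114, 0.36 and 0.20 in CMT-U27, and 0.35 and 0.18 in CMT-U309. It was thus at or below 0 in P114 and above 0 on all 4 arrays of the other lines. Its mean of 0.13 (SE 0.15, -0.20 to 0.46) did not differ from 0 beyond the spread between lines (limma adjusted p = 0.730).

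VEGFC, the lymphatic growth factor, showed no common direction. At the brighter probe the log2 ratio was -0.06, -0.86 and -0.60 (P114, CMT-U27, CMT-U309) where Cy5 marked the co-culture and 0.63, 0.03 and 0.38 where Cy3 did. The sign thus went with the dye at this probe in all 3 lines. At the dimmer probe the ratio was 0.11 and -0.14 in P114, -0.15 and 0.24 in CMT-U27, and 0.29 and 0.31 in CMT-U309. The means were -0.08 (SE 0.14, -0.40 to 0.24) and 0.11 (SE 0.12, -0.17 to 0.39), with limma adjusted p of 0.842 and 0.741. A 2-fold mean difference in either direction lies outside both intervals.

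PGF, the placental growth factor, was near the detection limit. Of the 6 channels of each culture, its brighter probe was well above background in 2 with co-culture RNA and 5 with monoculture RNA, and its dimmer probe in 1 and 4. At the brighter probe the log2 ratio was 1.46 and -0.81 in P114, -0.46 and -0.84 in CMT-U27, and -0.05 and -1.46 in CMT-U309. At the dimmer probe it was 0.84 and 1.22 in P114, -1.23 and -2.23 in CMT-U27, and -0.26 and -2.42 in CMT-U309. All 8 values in CMT-U27 and CMT-U309 were below 0, and of the 4 in P114 only the brighter probe on replicate 2 was. The means were -0.36 (SE 0.29, -1.01 to 0.29) and -0.68 (SE 0.47, -1.73 to 0.37), neither beyond the spread between lines (limma adjusted p = 0.642 and 0.591). Without P114 the dimmer probe was at -1.54 with a limma adjusted p of 0.00585, in a fit of CMT-U27 and CMT-U309 alone in which 6368 probes passed. The brighter probe was at -0.70 there and missed the threshold (limma adjusted p = 0.0949). The dimmer probe was at -0.16 without CMT-U27 and -0.35 without CMT-U309. Its co-culture channels on replicate 2 of CMT-U27 and of CMT-U309 held surrogate values. In CMT-U27 and CMT-U309 the co-culture channels also had the smaller share of all probes well above background, and its part in the PGF values was not tested.

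Among the receptors, KDR, the main signaling receptor for VEGFA, was higher in co-culture on every array. The log2 ratio was 0.69 and 0.35 in P114, 0.36 and 0.34 in CMT-U27, and 0.67 and 0.21 in CMT-U309. The values overlapped between lines. The mean was 0.44 (SE 0.18, 0.03 to 0.85), a 1.35-fold difference, with a limma p of 0.0397 and an adjusted p of 0.498. KDR was well above background in all 8 channels of CMT-U27 and CMT-U309 and in none of the 4 of P114, where 2 channels held surrogate values, so the P114 ratios compare signals at background. Without P114 the mean was 0.39 (limma adjusted p = 0.186), and the unadjusted p was no longer under 0.05 in 9 of 18 alternatives, each fit without 1 line among them.

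FLT1, which also acts as a decoy for VEGFA, had log2 ratios at the brighter probe of -0.89 and -0.40 in P114, 0.78 and -0.45 in CMT-U27, and 0.36 and 0.08 in CMT-U309. At the dimmer probe they were 1.13 and -2.29 in P114, -0.34 and -0.04 in CMT-U27, and 0.17 and -1.02 in CMT-U309. The arrays of a dye-swap took opposite signs in CMT-U27 at the brighter probe and in P114 and CMT-U309 at the dimmer one. The means were -0.09 (SE 0.22) and -0.40 (SE 0.25), with limma adjusted p of 0.891 and 0.560. The dimmer probe was well above background in 5 of 12 channels.

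The co-receptors had mean ratios near 0. NRP1, which binds VEGFA and SEMA3A, was at 0.40 and 0.36 in P114, -0.15 and -0.44 in CMT-U27, and -0.57 and 0.07 in CMT-U309. NRP2, the partner of VEGFC and SEMA3F, was at -0.08 and 0.18 in P114, 0.08 and 0.27 in CMT-U27, and -0.07 and 0.20 in CMT-U309. For NRP2 no array went past 0.27 in either direction. The means were -0.05 (SE 0.16, -0.42 to 0.31) and 0.10 (SE 0.11, -0.15 to 0.35), with limma adjusted p of 0.912 and 0.740, and both genes were well above background in all 12 channels.

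The agreement between probes of a gene varied. For VEGFA both probes lay on the same side of 0 on 5 of 6 arrays and in 3 of 3 line means, and they differed by a median of 0.29 on the log2 scale. For PGF they did so on 5 arrays and in 3 lines, with a median difference of 0.87 and one of 2.03 on replicate 2 of P114. The VEGFC probes took the same side on 3 arrays and in 0 of 3 line means, with a median difference of 0.46, and the FLT1 probes on 3 arrays and in 1 line mean, with a median difference of 1.11. VEGFA thus had the smallest median difference between probes of these 4 genes.

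**Figure D2:**
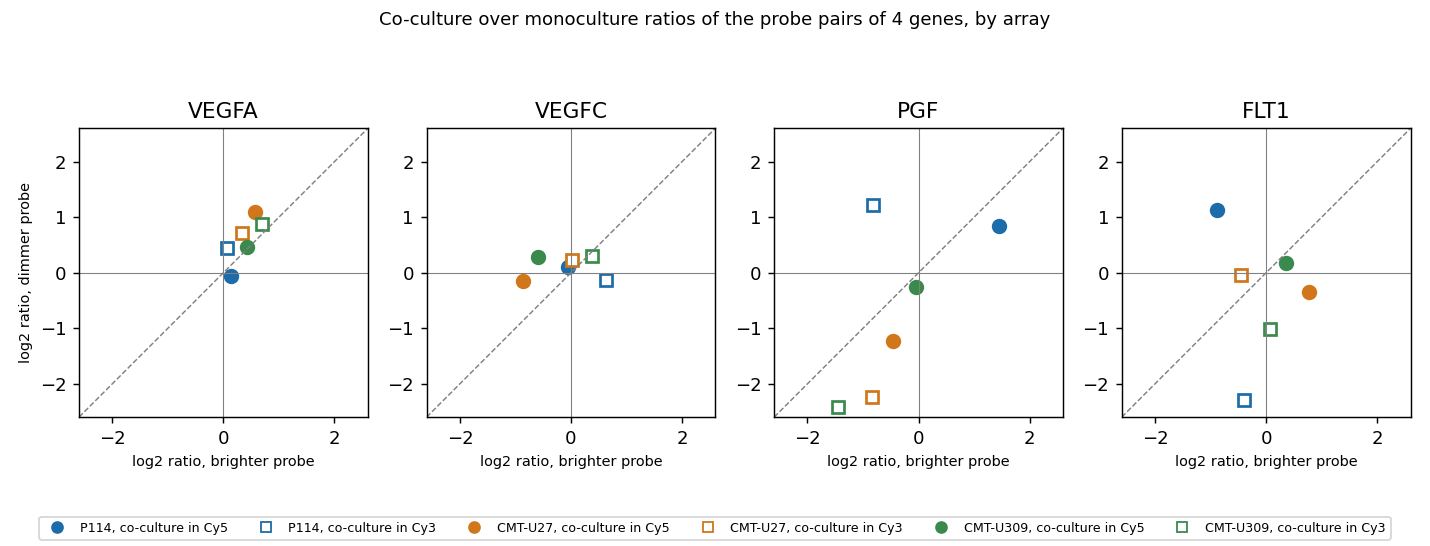
Log2 ratio of co-culture over monoculture at the brighter probe (x axis) and at the dimmer probe (y axis) of VEGFA, VEGFC, PGF and FLT1, 1 point an array, coloured by line and filled where co-culture RNA was in Cy5. Points on the dashed line have equal ratios; VEGFA points cluster at its upper right, on 5 of 6 arrays with both probes above 0, and the points farthest from it are replicate 2 of P114 for PGF and replicate 1 of P114 for FLT1.

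The level of each gene was next compared between the lines, on log2 signals scaled to a common channel median, with limma fitted on 6 RNA samples. Of all probes, 41.3% differed between P114 and CMT-U27 at an adjusted p under 0.05, 29.6% between P114 and CMT-U309, and 46.6% between CMT-U27 and CMT-U309. Of the 12 VEGF probes, 5, 7 and 8 did so. FLT1 (brighter probe), NRP2 and the dimmer VEGFA probe differed in all 3 comparisons, while VEGFB, NRP1 and the dimmer PGF probe differed in none. Over all probes 47.7%, 60.7% and 58.0% of the calls were higher in the first line of each pair. Without scaling these shares were 20.9%, 7.91% and 38.7%, and the median difference over all probes moved from 0.15, 0.15 and 0.04 to -0.31, -0.63 and -0.27 on the log2 scale, so unscaled differences below are to be read relative to those medians. The p-values are from a fit with culture as a term. The spread they measure is how far the co-culture difference varied between lines, moderated across probes. Variation between repeated cultures of a line or between arrays is not covered.

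The VEGFA transcript was lowest in CMT-U27. At the brighter probe the log2 level was 14.38 in monoculture and 14.48 in co-culture of P114, 13.35 and 13.81 in CMT-U27, and 14.20 and 14.76 in CMT-U309. CMT-U27 lay below P114 by 0.85 (SE 0.15, limma adjusted p = 0.00147), or 1.80-fold, and below CMT-U309 by 0.90 (SE 0.15, adjusted p = 0.000839). P114 and CMT-U309 did not differ beyond this spread (-0.05, limma adjusted p = 0.829), but P114 passed as lower without scaling (-0.83, adjusted p = 0.00152) and after normexp with loess (-0.53, adjusted p = 0.0342). At the dimmer probe the levels were 7.69 and 7.89 in P114, 4.70 and 5.61 in CMT-U27, and 6.47 and 7.14 in CMT-U309. There P114 exceeded CMT-U27 by 2.63 (SE 0.23, limma adjusted p = 9.25e-06) and CMT-U309 by 0.99 (adjusted p = 0.00866), so the probes differed on whether P114 stood above CMT-U309. Without scaling of the channels, P114 over CMT-U27 was 0.38 at the brighter probe (limma adjusted p = 0.0680), and P114 over CMT-U309 was 0.21 at the dimmer probe (adjusted p = 0.462). The latter also missed the threshold without a trend in limma (adjusted p = 0.0513) and without replicate 2 of P114 (adjusted p = 0.0540).

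The probe with the VEGFB symbol did not differ between lines beyond the spread. Its log2 level was 7.84 and 7.70 in P114, 7.51 and 7.79 in CMT-U27, and 7.84 and 8.11 in CMT-U309, in monoculture and co-culture. These ranges overlapped for P114 and CMT-U27 and met for P114 and CMT-U309. The largest difference, CMT-U309 over CMT-U27, was 1.25-fold (limma adjusted p = 0.173). Without scaling P114 over CMT-U309 passed the threshold (-0.98, limma adjusted p = 0.00141). CMT-U27 over CMT-U309 did so as well (-0.63, adjusted p = 0.0146), and also after normexp with loess (-0.29, adjusted p = 0.0443). The VEGF-B probes without this symbol, given at the end, were brighter and read lowest in P114 and highest in CMT-U309.

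VEGFC was highest in the spindle cell line, at both probes. The brighter probe read 9.91 and 10.19 in P114, 10.69 and 10.28 in CMT-U27, and 11.89 and 11.78 in CMT-U309. The dimmer probe read 8.56 and 8.54, 8.66 and 8.70, and 10.08 and 10.38. Both CMT-U309 samples were above all 4 samples of the other lines at each probe. CMT-U309 exceeded P114 by 3.45-fold and 3.21-fold (limma adjusted p = 4.25e-05 and 2.68e-05) and CMT-U27 by 2.56-fold and 2.94-fold (adjusted p = 0.000118 and 1.90e-05). P114 and CMT-U27 did not differ beyond the spread (limma adjusted p = 0.0711 and 0.536), though without scaling P114 over CMT-U27 was -0.90 and -0.59 on the log2 scale (adjusted p = 0.00150 and 0.00814), and the brighter probe also passed with the replicate block (adjusted p = 0.0185) and without replicate 1 of CMT-U27 (adjusted p = 0.0276).

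PGF signals were low in every line. The brighter probe read 3.85 and 4.18 in P114, 4.11 and 3.46 in CMT-U27, and 5.42 and 4.67 in CMT-U309, and was well above background in 2, 2 and 3 of the 4 channels of these lines. CMT-U309 was the highest, 2.40-fold over CMT-U27 (SE 0.36 on the log2 scale, limma adjusted p = 0.0149) and 2.04-fold over P114 (adjusted p = 0.0543). The first of these missed the threshold without replicate 2 of P114 (limma adjusted p = 0.143), without replicate 1 of CMT-U309 (adjusted p = 0.145) and with the median over both probes (adjusted p = 0.0828), and the second passed it in 5 of 13 alternatives. At the dimmer probe, which was well above background in no P114 channel, the CMT-U309 signal was at least 1.18-fold that of P114 (limma adjusted p = 0.183).

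KDR separated P114 from the other lines. It read 7.25 and 7.60 in CMT-U27 and 6.80 and 7.24 in CMT-U309, and it was not well above background in any P114 channel. A fold against P114 is therefore a lower bound, taken after Aquantile normalization of the dye-normalized signals. It sets the mean of the brighter line against the P114 signal of each channel. Where that signal was lower, the lowest signal of any probe well above background in the channel took its place. The adjusted p printed beside any such bound is from the fit of scaled levels and does not test the bound. KDR was at least 7.87-fold higher in CMT-U27 than in P114 (limma adjusted p = 1.71e-07) and at least 6.45-fold higher in CMT-U309 (adjusted p = 7.04e-07). These bounds hold for that normalization only. Over 13 alternatives the log2 difference of P114 over CMT-U27 ranged from -5.47 to -1.17. That of P114 over CMT-U309 ranged from -5.06 to -1.05. CMT-U27 and CMT-U309 did not differ beyond the spread (1.33-fold, limma adjusted p = 0.170).

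FLT1 followed another order. Its brighter probe read 6.44 and 5.79 in P114, 4.08 and 4.24 in CMT-U27, and 7.63 and 7.84 in CMT-U309. The 3 lines did not overlap. CMT-U309 was 11.9-fold above CMT-U27 (difference 3.58 with SE 0.27, limma adjusted p = 2.67e-06) and 3.07-fold above P114 (adjusted p = 0.00129), and P114 was 3.88-fold above CMT-U27 (adjusted p = 0.000215). In CMT-U27 2 of 4 channels were well above background, so the folds over CMT-U27 rest partly on signals near background. Over 14 alternatives the log2 difference of CMT-U27 over CMT-U309 ranged from -3.89 to -1.27. That of P114 over CMT-U27 ranged from 0.48 to 2.24. The dimmer probe also read highest in CMT-U309, 3.70-fold over P114 and 3.55-fold over CMT-U27 (limma adjusted p = 0.00113 and 0.000666), but it did not separate P114 from CMT-U27 (adjusted p = 0.891), where it was well above background in 1 of 4 channels each.

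Of the co-receptors, NRP2 differed between all lines and NRP1 between none. NRP2 read 11.11 and 11.16 in P114, 8.90 and 9.08 in CMT-U27, and 9.66 and 9.72 in CMT-U309, with no overlap. P114 was 4.45-fold above CMT-U27 (limma adjusted p = 1.05e-06) and 2.72-fold above CMT-U309 (adjusted p = 3.74e-05), and CMT-U309 was 1.63-fold above CMT-U27 (adjusted p = 0.00190). NRP1 read 7.91 and 8.29 in P114, 7.92 and 7.63 in CMT-U27, and 7.92 and 7.67 in CMT-U309. Its monoculture levels lay within 0.1 of each other, and the largest difference between lines was 1.25-fold (limma adjusted p = 0.231).

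**Figure D3:**
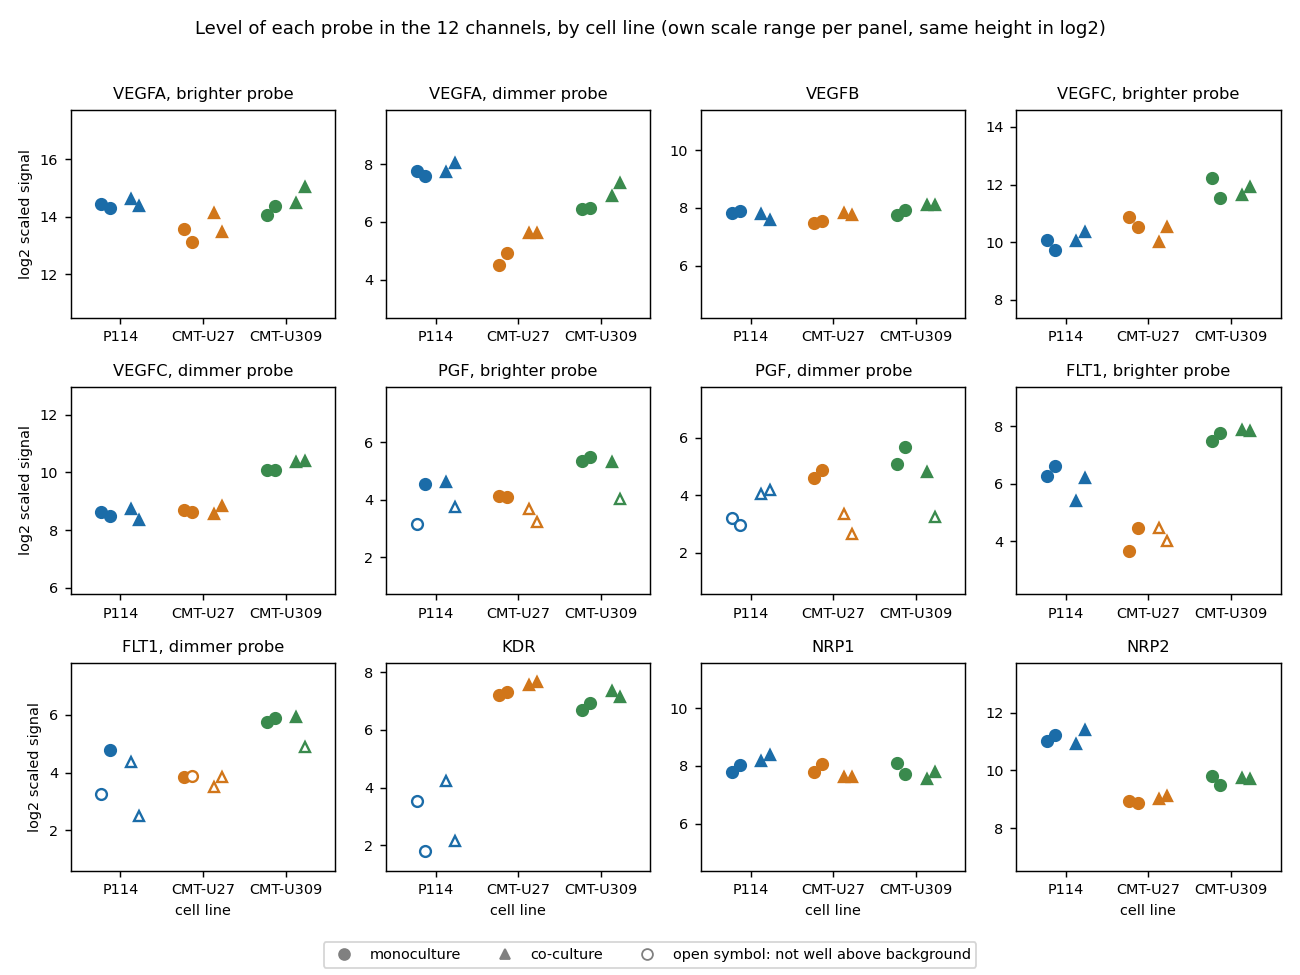
Log2 scaled signal (y axis, each panel with its own range but the same height in log2 units) of the 12 probes in the 12 channels, by cell line (x axis). Circles are monoculture and triangles co-culture, 2 dye channels each, and open symbols were not well above background; KDR is open in all 4 P114 channels, VEGFC and FLT1 are highest in CMT-U309, and NRP2 is highest in P114.

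Over the 6 RNA samples, the log2 level of VEGFA was most like that of CCDC8 and FADS2 (Pearson r = 0.997 and 0.995), VEGFB like S100A3 and KDM6B (0.986 and 0.985), and VEGFC like HSPA13 and CENPA (0.996 and 0.995). NRP1 was most like KIAA0586 and TET3 (0.978 and 0.976), and NRP2 like CD70 and AZIN1 (0.996 and 0.995). These were the highest of 15888 names well above background in all 12 channels, and the samples are pairs from 3 lines on shared arrays, so the values are a description of 3 lines.

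Genes around the VEGF system were examined through 4 lists. Among upstream regulators of VEGF transcription such as the hypoxia-inducible factors, 0 of 21 genes tested passed the thresholds of the methods between co-culture and monoculture, with a median log2 ratio of -0.02, and 3 had an unadjusted limma p under 0.05 at any fold. Of the genes of signaling downstream of the receptors 0 of 57 passed (median 0.07), with 8 at that p, and of other angiogenic factors, inhibitors and their receptors 0 of 49 (median -0.0043), with 4 at that p. Of 11 semaphorins and plexins that use the neuropilins, 1 passed as higher (median 0.03), with 2 at that p. The gene that passed was PLXNA4, a plexin, which was well above background in none of the 12 channels, and it is given no fold. Over all 33211 names tested the median was 0.0016, with 374 higher and 73 lower, and 3359 had an unadjusted limma p under 0.05.

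**Figure D4:**
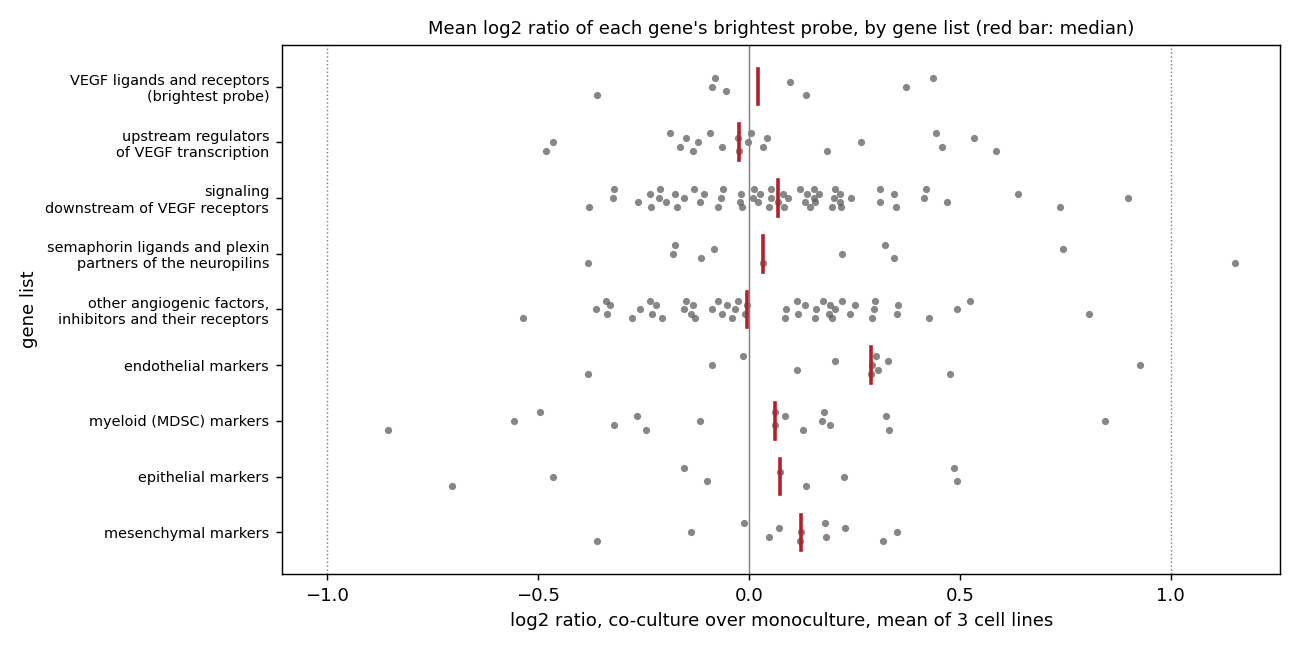
Mean log2 ratio of co-culture over monoculture over 3 cell lines (x axis) of each gene's brightest probe, by gene list (y axis), with a red bar at the list's median and dotted lines at a fold change of 2. The 8 VEGF genes lie between -0.36 and 0.44, and the 1 gene past the dotted line, PLXNA4, was not well above background.

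Between lines, at an adjusted p under 0.05 in limma, 10, 9 and 12 of the 21 regulators differed for P114 over CMT-U27, P114 over CMT-U309 and CMT-U27 over CMT-U309. These are 47.6%, 42.9% and 57.1%, beside 41.3%, 29.6% and 46.6% of all probes. The shares of the lists use the brightest probe of each gene, while those of all probes also count dimmer probes. A share over the brightest probes of all names was not computed between lines, so the comparison is not like for like. The split of such calls into higher and lower depended on the scaling of the channels over all probes, so it is not given for the lists. The largest were TFAP2A, a transcription factor, at 7.12 in P114 and 4.17 in CMT-U309 (limma adjusted p = 8.61e-05), and PPARGC1A, a metabolic coactivator, at 6.20 in CMT-U27 and 3.37 in CMT-U309 (adjusted p = 3.17e-05). Of the 57 downstream genes, 27, 19 and 32 differed in the same order of comparisons. PTGS2, the inducible cyclooxygenase, was at 11.85 in P114 and 3.58 in CMT-U27 (limma adjusted p = 9.03e-10), where 1 of 4 channels was well above background, and the kinase FYN was at 10.51 in CMT-U309 and 5.93 in CMT-U27 (adjusted p = 1.53e-07). Of the 11 semaphorins and plexins, 5, 6 and 6 differed. PLXNA2 was at 9.35 in CMT-U27 and 3.36 in CMT-U309 (limma adjusted p = 3.36e-08), and SEMA3F, a ligand of NRP2, was at 9.81 in P114 against 7.15 in CMT-U27 and 5.60 in CMT-U309 (adjusted p = 1.16e-06 for P114 over CMT-U309). NRP2 was highest in P114 as well. Of the 49 other angiogenic genes, 32, 25 and 36 differed (65.3%, 51.0% and 73.5%). SERPINF1, an inhibitor of vessel growth, was at 14.23 in CMT-U309 and 5.82 in CMT-U27 (limma adjusted p = 1.17e-09), and EDN1, a vasoconstrictor peptide, was at least 39.9-fold higher in CMT-U27 than in P114 (adjusted p = 1.46e-08).

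Markers of other cells were read beside these values. No marker of 4 cell types passed the thresholds of the methods between co-culture and monoculture (0 of 12 endothelial, 17 myeloid, 9 epithelial and 12 mesenchymal genes). Of these, 2, 2, 3 and 1 had an unadjusted limma p under 0.05, beside 3359 of all 33211 names tested. The median log2 ratios of the lists were 0.29, 0.06, 0.07 and 0.12 in the same order. Of the 12 endothelial genes, 3 were well above background in all 12 channels (PECAM1, VWF and TIE1) and 3 in none (CDH5, TEK and PROX1). Of the 17 myeloid genes, 4 were so in all 12 channels (ITGB2, S100A8, CD68 and ARG1) and 3 in none (ITGAM, SPI1 and LYZ). The summed endothelial signal, most of it from VWF, ranged from 5789 to 10009 in co-culture and from 4804 to 6263 in monoculture of CMT-U27. It ranged from 10100 to 12274 and from 7450 to 8875 in CMT-U309, and from 7402 to 10445 and from 8421 to 9472 in P114. It was thus higher in co-culture on average in the lines where VEGFA had its larger ratios, and its part in the VEGFA values was not tested. The summed myeloid signal was 13897 to 13946 in co-culture and 8194 to 8457 in monoculture of CMT-U27, where S100A8 made up most of it, and the cultures overlapped in the other lines. EPCAM was at 15.42 in CMT-U27, 9.18 in P114 and 6.68 in CMT-U309, and in the same order COL1A1 was at 3.69, 14.85 and 16.22 and VIM at 10.19, 16.86 and 16.23. P114, which is labelled an anaplastic cancer, thus had high collagen and vimentin signals as did CMT-U309. KRT14 alone of the 9 epithelial genes was lowest in CMT-U27, at 11.05 against 11.86 in P114 and 12.58 in CMT-U309. All mesenchymal genes but THY1 and PDGFRB were lowest in CMT-U27. THY1 was at 9.88 in CMT-U27, 9.35 in P114 and 10.00 in CMT-U309.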

How the data were processed

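RNA of 3 canine mammary tumor lines in co-culture with MDSCs and in monoculture was measured on 6 Agilent canine arrays, 2 a line with the dyes exchanged. For each array the authors deposited a scanner file, written by Feature Extraction 10.10.1.1 per the file headers and 10.7.3.1 per the labels, whose processed signal intensities are background-subtracted and dye-normalized, with surrogates for low signals. They also deposited a table of log10 ratios, already turned to co-culture over monoculture.

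Groups came from the sample labels. Control and outlier spots were left out, repeated spots averaged, channels scaled to a common median, and a probe kept where its highest intensity was above 10. Log2 ratios of a dye-swap were averaged, and their mean over 3 lines was compared with 0 in R 4.3.3 by limma 3.58.1 (eBayes with a trend, Benjamini-Hochberg over 40880 probes). The thresholds of the methods were an unadjusted p under 0.05 and a fold over 2. Levels were compared over 6 RNA samples with culture as a term. A sign-flip test over 3 lines cannot give a p below 0.25. The fits were tested on simulated data. The number of arrays limits the precision.

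All probes of the listed symbols are named. From each list, up to 2 genes in each direction with the largest ratio past the thresholds and well above background in the 6 channels of the higher condition were to be named, and up to 2 with the largest level difference between lines (adjusted p under 0.05, well above background in the 4 channels of the higher line). Likeness was the Pearson correlation over 6 RNA samples. The members and lists were chosen with earlier results of these data known. Symbols are those of the files, and 9 of 10 were found in the RefSeq table of UU_Cfam_GSD_1.0, where the other, FIGF, is listed as VEGFD. Plots were drawn with matplotlib 3.10.9.

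The replicate number marks the dye. Ratios of same-numbered arrays of different lines correlated at -0.22, 0.03 and 0.40 (replicate 1) and at 0.47, 0.51 and 0.61 (replicate 2). A fit with the number as a block was an alternative, beside normexp with loess, the deposited ratios, other scaling, other filters, the methods' t-test, eBayes without a trend, outliers kept, medians over probes, and arrays or lines left out.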

Additional observations from a re-analysis of the deposited data

Results flagged for a closer look

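At 4 probes every array of P114 took one side of 0 and every array of another line the other, in log2 ratios of co-culture to monoculture. The difference between lines was not tested, since a line has no replicate beyond its dye-swap. VEGFB was at 0.28 in CMT-U27 and 0.27 in CMT-U309, against -0.14 in P114, where replicate 1 was at -0.0025. The brightest VEGF-B probe, which lacks this symbol and is given below, took both signs in every line. The dimmer PGF probe was at -1.73 in CMT-U27 and -1.34 in CMT-U309 against 1.03 in P114. It was well above background in 2, 3 and 0 of the 4 channels of these lines. The brighter FLT1 probe was at -0.65 in P114 and 0.22 in CMT-U309. NRP1 was at 0.38 in P114 and -0.30 in CMT-U27. In each of the 4 it was P114 that stood against another line, the line whose dye-swapped arrays correlated at -0.39 over all probes.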

How the results depend on the processing

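Of 228 alternative values of the member ratios, 213 kept their direction and their side of the threshold, 1 newly passed it and 14 reversed. Of 471 alternative level differences, 431 kept both, 7 lost the call, 16 gained it and 17 reversed. In every alternative run in which they were tested, both VEGFA probes and KDR kept their direction. The brighter VEGFA probe ranged from 0.28 to 0.51 and the dimmer from 0.13 to 0.79. With the replicate block (dye orientation), limma adjusted p was 0.201 and 0.202 for VEGFA and 0.250 for KDR, and 6 probes of all genes passed. In levels the block added a call between P114 and CMT-U27 at the brighter VEGFC probe (adjusted p = 0.0185) and between P114 and CMT-U309 at both PGF probes (0.0351 and 0.0284). It changed no other member's call.

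Over all probes, 421 were called higher and 78 lower in co-culture. Normexp with loess called 3 and 0, only probes well above background 27 and 10, and the methods' t-test 83 and 35. The deposited ratios called 280 higher, and 6 arrays without a block 270, with 5 passing adjustment. With 1 array or line left out, 31 (without replicate 2 of P114) to 2108 (without line P114) were called higher, 50 to 701 lower, and 0 to 6368 passed adjustment. Without scaling, 21463 probes differed between P114 and CMT-U309, and without a trend 7445, against 12117. The cause was not tested.

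Reversed ratios were small. Under normexp, PGF was at 0.020 and FLT1 at 0.028 (brighter probes), and the median over probes put VEGFC at 0.015. With 1 array or line left out, the brighter probe of VEGFC ranged from -0.26 to 0.089, that of PGF from -0.74 to 0.017 and that of FLT1 from -0.29 to 0.19, the dimmer FLT1 probe from -0.97 to 0.17, and NRP1 from -0.27 to 0.066.

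Reversed levels were as follows. For P114 over CMT-U27, quantile normalization gave 0.0022 (VEGFC, dimmer probe) and -0.13 (PGF, brighter), no scaling gave -0.34 (VEGFB), -0.23 (PGF, brighter) and -0.14 (NRP1), normexp gave 0.011 (VEGFC, dimmer) and 0.018 (FLT1, dimmer), and the median over probes gave -0.021 (PGF). For P114 over CMT-U309, no scaling gave -0.47 for NRP1 and the median over probes 0.47 for VEGFA. With 1 array left out, P114 over CMT-U27 ranged from -0.25 to 0.0027 (VEGFC, dimmer) and from -0.15 to 0.036 (FLT1, dimmer), VEGFA in P114 over CMT-U309 from -0.27 to 0.17 (brighter), and NRP1 in CMT-U27 over CMT-U309 from -0.10 to 0.054. Signal over background limited PGF, FLT1 and, in P114, KDR.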

Other observations

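Probes outside the symbols were described in the files as VEGF-D and VEGF-B under transcript identifiers. The VEGF-D probe was well above background in 0 of 12 channels, and no fold is given for it. The VEGF-B probes were well above background in all 12 channels. One of them had log2 ratios of -0.07 and 0.31 in P114, -0.09 and 0.22 in CMT-U27, and -0.37 and 0.06 in CMT-U309, with a mean of 0.01 (SE 0.11). The other had 0.09 and -0.13, 0.32 and 0.41, and 0.43 and 0.15, with a mean of 0.21 (SE 0.12). At the second probe both arrays of CMT-U27 and of CMT-U309 were above 0, as at the probe with the VEGFB symbol. The first probe, the brighter of the VEGF-B probes, did not share this: its sign went with the dye in every line. Neither passed the threshold in limma (adjusted p = 0.980 and 0.542).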
